A study of Homo sapiens with 6 samples.

Results

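The genes described here are 39 human genes of antigen presentation and the interferon response, taken by gene name from a deposited table of 60612 genes, in which each name matched 1 row. They comprise 5 genes of major histocompatibility complex (MHC) class I molecules, 3 class II genes, 3 peptide-loading genes, 3 immunoproteasome subunits, 5 transcriptional regulators, 13 antiviral effectors and sensors and 7 other interferon-stimulated genes. RNA was sequenced from PANC-1, an established cell line from a human pancreatic carcinoma. The labels put 3 libraries in a group exposed to 50 µM D(+)-raffinose pentahydrate, a plant trisaccharide, for 24 h, and 3 libraries in a group of PANC-1 cells with no compound, vehicle or time of its own named. The title of the series is about PI3K/AKT signalling and cell death under this sugar, and no interferon was part of the labelled treatment. All libraries come from 1 cell line, and the labels do not say whether they are separate cultures, so every p-value here measures library-to-library spread that may be technical only.

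Class I molecules, a polymorphic heavy chain paired with beta-2-microglobulin, display peptides from inside the cell to CD8 T cells. The peptides are cut by the proteasome, whose catalytic subunits can be replaced by immunoproteasome subunits, carried into the endoplasmic reticulum by the TAP transporter and loaded there with the help of tapasin. Interferons signal through JAK kinases to STAT factors, which bind interferon-stimulated response elements (ISRE) together with IRF9, or gamma-activated sites (GAS) as STAT pairs. The genes so induced include antiviral effectors as well as most of the class I pathway, and carcinoma cells with little interferon signalling still keep part of this program at a basal level.

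Total counts ran from 59723420 to 66063664 per library, in estimated counts of which 1 read pair seems to add 4. The epithelial keratins KRT8 and KRT18 and the filament gene VIM were abundant, with mean levels of 393, 521 and 821 FPKM (fragments scaled by transcript length and by the fragments sequenced) in untreated cells. The other markers of that list were far lower, with CDH1 at 10.2, KRT7 at 1.155, EPCAM at 0.166 and KRT19 at 0.119 FPKM. Of 12 leukocyte markers, CD3D, CD3E and MS4A1 were among 4 with no reads in any library, and the pan-leukocyte gene PTPRC had at most 8 counts. The summed leukocyte markers were at 7.43 to 9.68 FPKM with raffinose and 12.65 to 16.4 FPKM without. CD68, a lysosomal protein gene, made up 88.8% to 96.3% of that sum, at 21.1 ± 3.82 CPM with raffinose and 36.8 ± 4.11 CPM without (counts scaled to a common library total, SD, n = 3 per group). The summed epithelial markers, keratins and VIM included, were at 1374 to 1428 FPKM with raffinose and 1677 to 1850 FPKM without, and those of fibroblasts at 44.6 to 47.3 and 47.9 to 52.03 FPKM. DESeq2 called KRT7, KRT8 and KRT18 lower of 7 tested epithelial markers, CD68 of 6 leukocyte markers and the collagen gene COL3A1 of 5 fibroblast markers. It called 2.05% of all tested genes lower. By edgeR 0 of the markers and 0.0848% of all tested genes were called lower. What part these shifts have in the values of the members was not tested.

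In these cells B2M, HLA-C, HLA-E, the TAP transporter, tapasin and ISG15 were well expressed. HLA-B was lower, at 2.20 FPKM in untreated cells, and HLA-F was at 0.0145 FPKM. Class II genes and some interferon-induced genes, MX1, OAS1 and OAS2 among them, were close to absent, while others such as IFIT1 and OAS3 were above 1 FPKM. No member passed the edgeR test for a difference between the groups. In such bulk libraries fewer cells expressing a gene and less RNA per cell cannot be told apart. Of the 39 members, 35 had enough counts to be tested among 18863 genes. By edgeR's quasi-likelihood test with Benjamini-Hochberg adjustment over all genes, 0 members were called higher and 0 lower, where 0.0371% of all tested genes were called higher and 0.0848% lower at an adjusted p under 0.05. At an unadjusted p under 0.05 the edgeR fit had 3 members higher and 5 lower, against 6.21% and 7.08% of all genes. DESeq2, run as an alternative, called HLA-B higher and IFIT2, TAP2 and ISG20 lower, against 1.34% of all genes called higher and 2.05% lower.

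The 3 libraries of each group did not overlap for 9 members. HLA-B, HLA-DMA and BST2 had all raffinose libraries above all untreated ones, which is 8.57% of tested members against 10.6% of all tested genes. IFIT1, IFIT2, ISG20, IFI35, TAP2 and PSMB10 had all raffinose libraries below, which is 17.1% of tested members against 10.9% of all tested genes. The log2 fold change of raffinose over untreated was above 0 for 16 tested members and below 0 for 19, against 51.0% and 49.0% of all tested genes. Its median was -0.03 for the members and 0.01 for all tested genes. HLA-DMA, HLA-DPA1, CD74, MX1, OAS1, TRIM22 and IFI27 were tested although they lay below the minimum of 0.158 CPM in 1 library or more, and a gene that enters a test through its higher group alone has a difference built in. Among the 21 members with a mean of at least 1 FPKM over all libraries, 9 were positive and 12 negative, and HLA-B was the 1 with groups apart and higher, beside the same 6 lower.

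**Figure D1:**
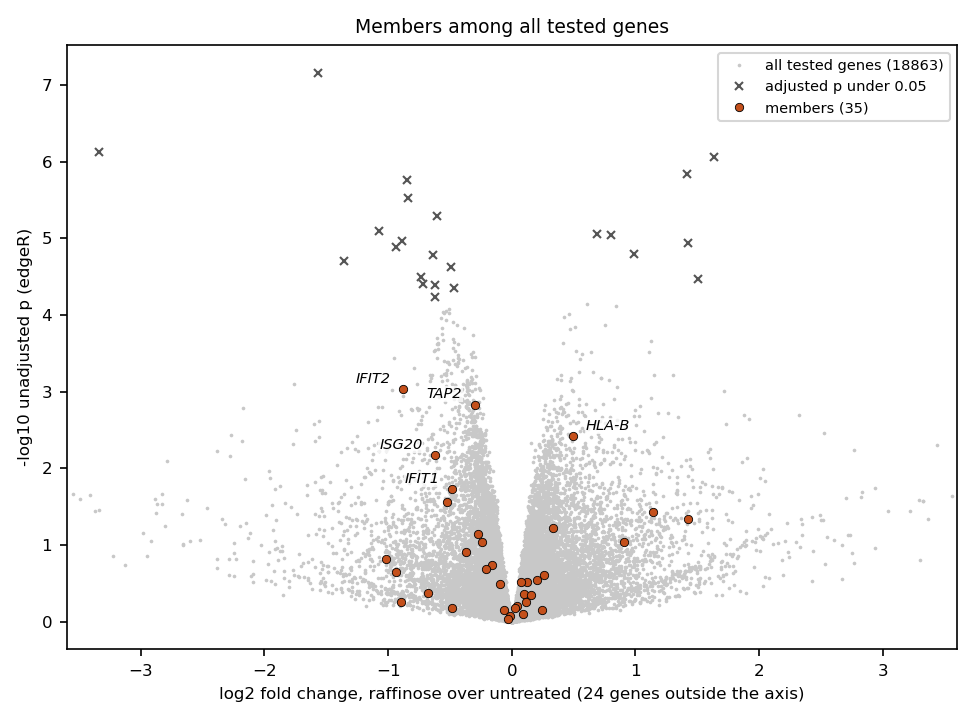
Log2 fold change of raffinose over untreated (x axis) against the negative log10 of the unadjusted edgeR p (y axis) for 18863 tested genes (grey), called genes (crosses) and 35 tested members (orange). The members spread through the grey cloud, and IFIT2 with TAP2, HLA-B and ISG20 reach highest among them without joining the crosses.

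Levels per transcript length spanned more than 3 orders of magnitude. In untreated cells 6 members were at 10 FPKM or more, 16 between 1 and 10, 5 between 0.1 and 1 and 12 under 0.1. B2M was highest at 60.9 ± 3.96 FPKM, followed by ISG15 at 40.2 ± 5.53, HLA-E at 24.9 ± 0.508, TAPBP at 14.8 ± 0.225, HLA-C at 11.8 ± 1.42 and TAP1 at 10.0 ± 0.452 (SD, n = 3). HLA-C and TAP1 differ by less than the sum of their SDs, while B2M lies apart from the rest. The lowest were MX1 at 0.0179 ± 0.00202 and HLA-F at 0.0145 ± 0.00480 FPKM.

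**Figure D2:**
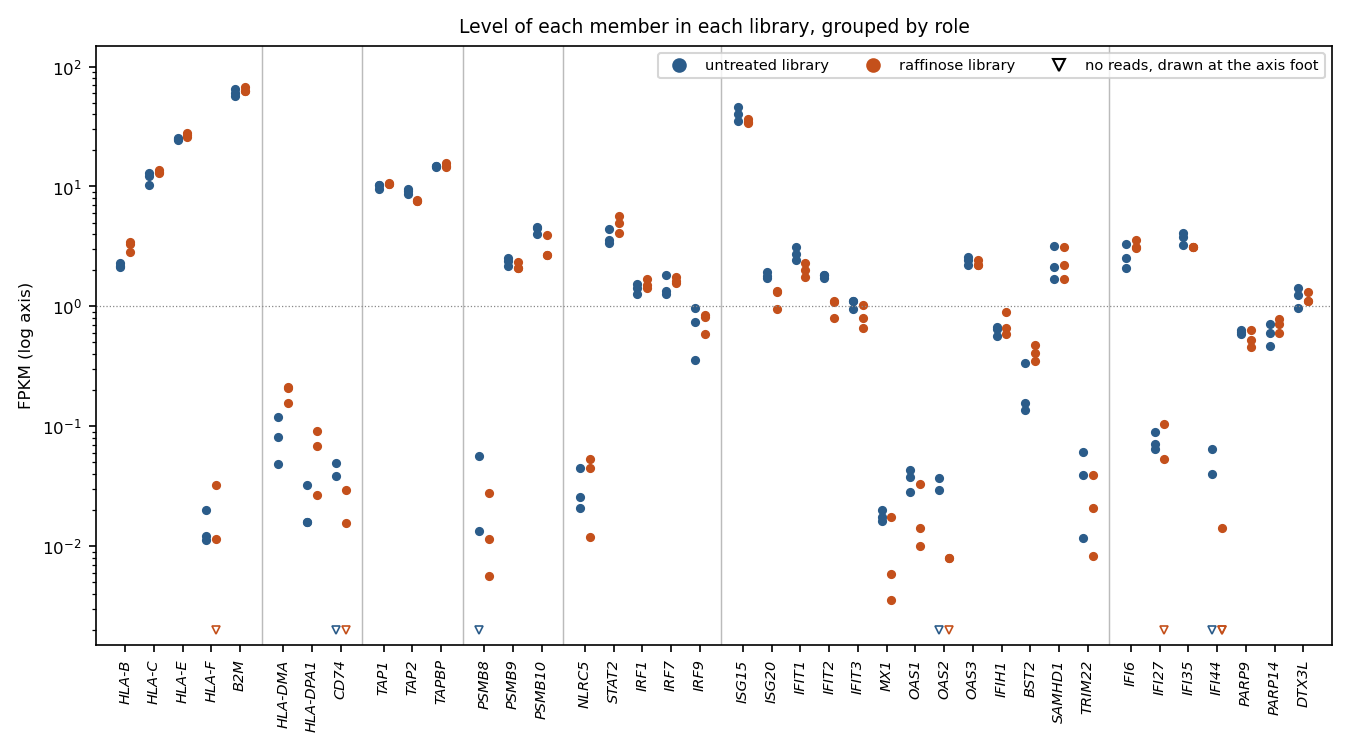
FPKM on a log axis for the 39 members in each of 3 untreated (blue) and 3 raffinose (orange) libraries, ordered by role from class I molecules at the left to other interferon-stimulated genes at the right. Class I, peptide loading and ISG15 points lie above 1 FPKM (dotted line) except HLA-F, while class II genes and PSMB8, NLRC5, MX1, OAS1 and OAS2 lie below 0.3 FPKM, with open triangles for libraries without reads.

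Promoter sequence from RefSeq (GRCh38.p14, 250 bases before to 50 after a transcription start) was found for 33 of the 39 members, those without an entry being IFIT2, HLA-E, IRF7, NLRC5, TRIM22 and OAS2. It was searched on both strands for an ISRE core, written as GAAA, any 2 bases and GAAA again, and for the palindromic GAS core TTCNNNGAA, and matches may overlap each other. The ISRE letters stood in 21 of the 33 members (63.6%) and in 3.57% of 35116 promoters of the same length, and the GAS letters in 10 (30.3%) and in 7.66%. The measures are unlike, since a member counts if any of its starts has a match and the background counts single promoters. More than 1 start was annotated for 8 members. Many of these genes are known as interferon targets, so a high share describes how they were assembled. Of the 18 tested members with ISRE letters 6 had a log2 fold change above 0 and 12 below, with a median of -0.15, and of 12 with a window but no such letters 7 were above and 5 below, with a median of 0.09. IFIT2, the tested member with the smallest edgeR p, is in neither count. Both groups ranged widely, from -0.93 to 0.91 and from -1.01 to 1.42. They were split by exact letters only, so members without the letters are not shown to lack an ISRE.

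The 200 bases before the start are shown for 4 members that were lower in every raffinose library (IFIT1, ISG20, TAP2, PSMB10), for HLA-B, which was higher in every one, and for B2M, the most abundant member. Capitals mark the ISRE letters. IFIT1, ISG20, TAP2 and PSMB10 hold them, in B2M a pair of matches overlaps, and HLA-B holds neither ISRE nor GAS letters. Of the others that were lower in every raffinose library, IFI35 holds GAS but no ISRE letters, and IFIT2 has no entry in the promoter table. Of the others that were higher in every raffinose library, BST2 holds both ISRE and GAS letters and HLA-DMA holds neither.
IFIT1: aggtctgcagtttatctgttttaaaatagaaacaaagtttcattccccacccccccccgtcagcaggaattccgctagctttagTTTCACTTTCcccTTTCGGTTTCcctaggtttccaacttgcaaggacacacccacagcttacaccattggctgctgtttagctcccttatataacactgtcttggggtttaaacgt
ISG20: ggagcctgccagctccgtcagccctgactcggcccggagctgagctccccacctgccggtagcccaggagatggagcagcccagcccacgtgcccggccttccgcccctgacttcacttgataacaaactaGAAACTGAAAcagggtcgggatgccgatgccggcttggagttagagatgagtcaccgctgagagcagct
TAP2: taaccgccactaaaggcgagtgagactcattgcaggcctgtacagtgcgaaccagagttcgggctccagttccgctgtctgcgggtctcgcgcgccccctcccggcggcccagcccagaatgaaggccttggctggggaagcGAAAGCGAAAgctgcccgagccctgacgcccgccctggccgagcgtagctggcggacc
PSMB10: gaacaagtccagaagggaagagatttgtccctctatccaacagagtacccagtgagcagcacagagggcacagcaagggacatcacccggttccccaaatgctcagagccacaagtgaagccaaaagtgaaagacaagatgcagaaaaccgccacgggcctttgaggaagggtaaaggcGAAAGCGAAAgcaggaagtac
HLA-B: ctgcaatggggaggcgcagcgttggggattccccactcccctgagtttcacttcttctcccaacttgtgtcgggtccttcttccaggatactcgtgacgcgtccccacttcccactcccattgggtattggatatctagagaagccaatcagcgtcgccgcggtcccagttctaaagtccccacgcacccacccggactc
B2M: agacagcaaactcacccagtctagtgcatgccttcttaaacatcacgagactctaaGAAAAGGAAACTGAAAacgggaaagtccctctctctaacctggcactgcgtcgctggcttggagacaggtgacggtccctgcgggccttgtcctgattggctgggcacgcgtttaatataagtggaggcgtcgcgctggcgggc
These windows are chr10:89392423-89392622 (plus strand) for IFIT1, chr15:88638816-88639015 (plus) for ISG20, chr6:32838740-32838939 (minus) for TAP2, chr16:67936851-67937050 (minus) for PSMB10, chr6:31357180-31357379 (minus) for HLA-B and chr15:44711317-44711516 (plus) for B2M. A match is a description of letters and says nothing of binding in these cells. Only exact letters were searched, so a window without a match, as in HLA-B, is not shown to lack such an element. Counted from the start, the ISRE letters begin at base -116 and -103 in IFIT1, -69 in ISG20, -58 in TAP2, -21 in PSMB10 and -144 and -138 in B2M.

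**Figure D3:**
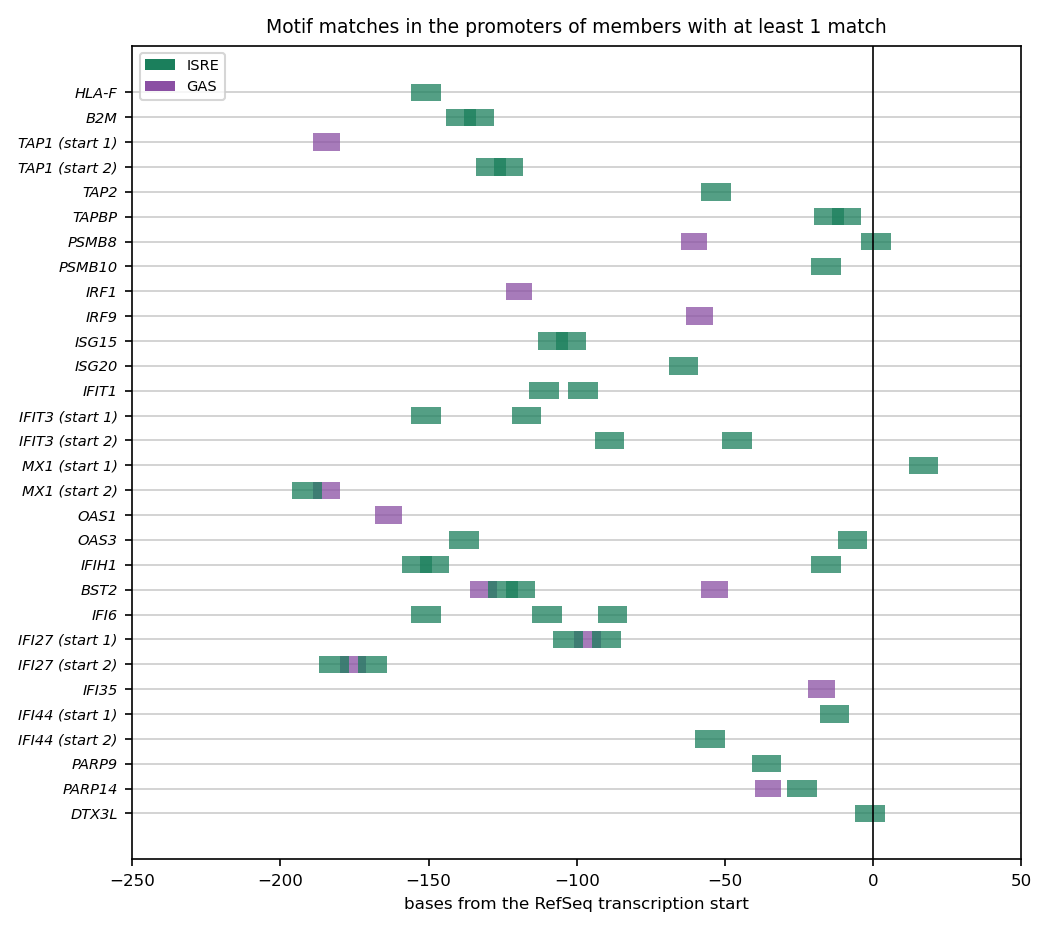
Positions of ISRE (green) and GAS (purple) letters, in bases from the RefSeq transcription start (x axis), for members with at least 1 match; a gene with several annotated starts and matches has a line for each. Most ISRE matches lie within the 200 bases before the start, and overlapping pairs appear in B2M, TAP1, TAPBP, ISG15, IFIH1 and BST2.

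Among class I genes HLA-B, a classical heavy chain, was the one with separate groups. Its level was 10.4, 12.6 and 11.8 CPM in raffinose replicates 1, 2 and 3 and 8.31, 8.50 and 7.84 CPM in the untreated replicates. Every raffinose library lay above every untreated one. The log2 fold change was 0.50 (SE 0.11), with an adjusted p of 0.18 by edgeR and 0.0135 by DESeq2. HLA-B (ENSG00000234745) is annotated on chromosome 6 from 31269491 to 31357179, minus strand (coordinates here are the deposited table's, whose build is not given). That span overlaps HLA-C on the same strand and the ribosomal protein pseudogene RPL3P2 on the other (log2 fold change -0.12, SE 0.09). How reads shared by these genes were assigned is not given in the sources used here, so single heavy chain values are uncertain.

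HLA-C, the other classical heavy chain of the set, was at 40.6, 38.9 and 38.6 CPM with raffinose and at 40.7, 31.0 and 36.9 CPM without. These ranges overlap, with a log2 fold change of 0.12 (SE 0.11). Per length HLA-B stood at 20.9%, 26.6% and 25.0% of HLA-C in raffinose libraries and at 16.7%, 22.4% and 17.4% in untreated ones. The ranges of that ratio overlapped (exact permutation test, two-sided p = 0.2, adjusted p = 0.3 over 3 ratios, smallest possible p = 0.1). With 3 libraries per group this test could not pass 0.05 and says nothing either way on whether HLA-B and HLA-C differ.

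B2M (ENSG00000166710, chromosome 15, 44711487 to 44718877, plus strand), the invariant light chain, was at 454, 495 and 440.0 CPM with raffinose and at 489.7, 416 and 444 CPM without. The groups overlapped throughout, and the log2 fold change was 0.04 (SE 0.08). HLA-E, a non-classical molecule seen by natural killer cells, had 92.6, 98.6 and 88.1 CPM with raffinose and 89.9, 85.8 and 89.9 CPM without, a log2 fold change of 0.07 (SE 0.06). HLA-F, also non-classical, had 0 to 11 counts per library and was not tested. The fold changes of the 4 tested class I members were above 0, from 0.04 to 0.50, with B2M near -0.01 once raffinose replicate 2 or untreated replicate 2 was left out, and their smallest edgeR adjusted p was 0.18.

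Of the peptide-loading genes TAP2 had separate groups and TAP1 and TAPBP did not. TAP1 and TAP2 encode the partner chains of the peptide pump. TAP2 was at 56.8, 58.7 and 56.5 CPM in raffinose libraries and at 68.4, 70.7 and 72.7 CPM in untreated ones. Its libraries were tight in both groups and did not overlap, and the log2 fold change was -0.30 (SE 0.06), with an adjusted p of 0.146 by edgeR and 0.0034 by DESeq2. TAP1 was at 59.4, 61.3 and 58.6 CPM with raffinose and at 61.2, 59.3 and 55.1 CPM without, overlapping throughout (0.03, SE 0.07). Tapasin, encoded by TAPBP, bridges the transporter and class I and was at 94.0, 90.5 and 85.4 CPM with raffinose and 93.1, 87.9 and 91.1 CPM without (-0.01, SE 0.06). TAP2 (ENSG00000204267) lies on chromosome 6 from 32821833 to 32838770 and TAP1 (ENSG00000168394) from 32845209 to 32853978, both on the minus strand. A difference between the 2 genes in their response was not tested.

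Outside the set, the one pathway gene that edgeR called was the lectin chaperone CANX, which holds newly made heavy chains. It was at 1430 ± 61.0 CPM with raffinose and 818 ± 55.5 CPM without (log2 fold change 0.81, SE 0.07, edgeR adjusted p = 0.0171). The call was lost with the replicate number as a block (edgeR adjusted p = 0.265) and without raffinose replicate 2 (0.0687), raffinose replicate 3 (0.0569) or untreated replicate 3 (0.0871), while the log2 fold change stayed between 0.76 and 0.86 in every setting. CALR, the soluble chaperone of the loading complex, was not called (0.11, SE 0.05), nor was its partner PDIA3 (0.05, SE 0.05). In the list of other class I pathway genes edgeR called 1 of 13 tested genes higher and 0 lower, and DESeq2 called CANX and MICA, a stress-induced ligand of natural killer cells, at 24.2 ± 0.540 against 20.02 ± 0.0708 CPM. The shares of all tested genes called higher were 0.0371% by edgeR and 1.34% by DESeq2. The trimming peptidase ERAP1 was at 39.4 ± 1.79 CPM with raffinose and 46.3 ± 6.34 CPM without.

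Of the immunoproteasome subunits, PSMB10 (ENSG00000205220, chromosome 16, 67934506 to 67936850, minus strand) had 5.20, 7.72 and 5.14 CPM with raffinose and 8.16, 8.79 and 9.07 CPM without. Raffinose replicate 2 lay close under the lowest untreated library and the others well below it. The log2 fold change was -0.53 (SE 0.19), with an adjusted p of 0.31 by edgeR and 0.157 by DESeq2. An unnamed transcript, AC040162, overlaps it on the same strand. PSMB9 was at 8.37, 8.37 and 9.11 CPM with raffinose and 10.0, 10.1 and 8.80 CPM without, overlapping in 1 pair of libraries (-0.16, SE 0.11). PSMB8, whose gene lies between TAP2 and PSMB9, had 8, 5 and 2 counts with raffinose and 4, 0 and 15 without and was not tested. Per length it stood at 0.0235 ± 0.0297 FPKM in untreated cells, beside 2.37 ± 0.180 for PSMB9 and 10.0 ± 0.452 for TAP1 nearby. PSMB9 overlaps both PSMB8 and TAP1 on the opposite strand in the table.

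The constitutive subunits that these replace were far more abundant, with PSMB5 at 89.7, PSMB6 at 132 and PSMB7 at 140 FPKM in untreated cells. Their raffinose and untreated libraries did not overlap either, at log2 fold changes of -0.44 (SE 0.07) for PSMB5, -0.21 (SE 0.06) for PSMB6 and -0.20 (SE 0.07) for PSMB7. DESeq2 called PSMB5 lower (adjusted p = 8.8e-05) and edgeR did not (adjusted p = 0.0984). PSMB9 stood at 1.79%, 1.72% and 2.08% of PSMB6 per length with raffinose and at 1.81%, 1.97% and 1.62% without (exact permutation test, two-sided p = 0.7, adjusted p = 0.7). PSMB10 stood at 2.14%, 3.04% and 2.23% of PSMB7 with raffinose and at 2.74%, 3.28% and 3.36% without (exact permutation test, two-sided p = 0.2, adjusted p = 0.3). The smallest possible p of this test was 0.1, so it cannot tell whether either proteasome ratio differed. Of 19 tested genes of the constitutive proteasome and its activators 16 were negative, with a median of -0.10, and DESeq2 called PSMB5, PSMB3 and PSMA3 lower, while edgeR called 0 (5 at an unadjusted p under 0.05). Of all tested genes 49.0% were negative, 2.05% were called lower by DESeq2 and 7.08% were lower at an unadjusted edgeR p under 0.05.

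**Figure D4:**
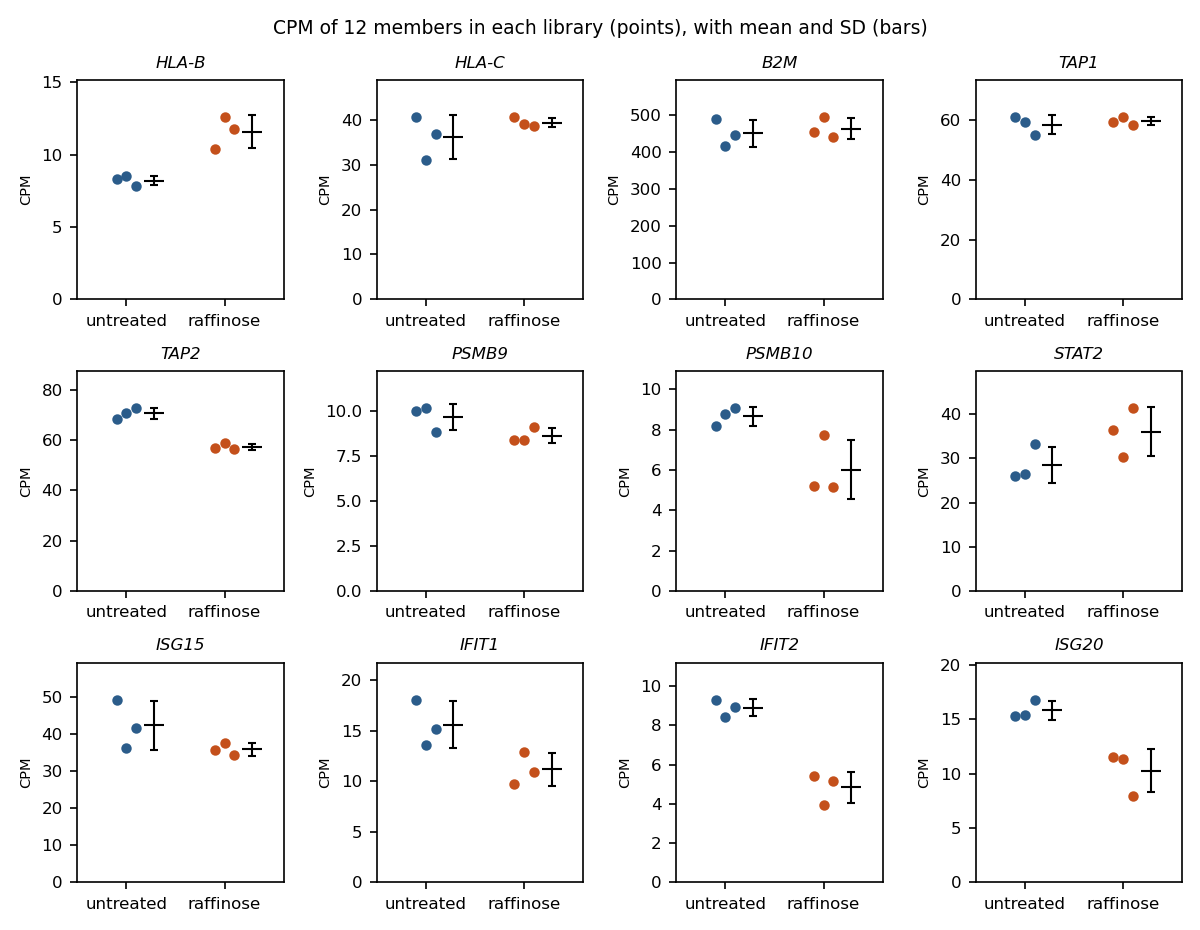
CPM of 12 members in each untreated (blue) and raffinose (orange) library, with black bars for mean and SD of 3 libraries; every axis starts at 0. HLA-B lies higher with raffinose and TAP2, PSMB10, IFIT1, IFIT2 and ISG20 lower without overlap, whereas HLA-C, B2M, TAP1, PSMB9, STAT2 and ISG15 overlap.

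Class II genes, which present peptides from outside the cell and are normally restricted to professional antigen-presenting cells, were near the limit of detection. HLA-DMA, part of the peptide editor of class II, had 31, 42 and 40 counts with raffinose and 25, 10 and 15 without, and these groups did not overlap (edgeR log2 fold change 1.14, SE 0.44, adjusted p = 0.342). Its span overlaps that of BRD2 on the opposite strand, a gene with a mean count of 12390 whose own log2 fold change was 0.30 (SE 0.10). HLA-DPA1, a class II alpha chain, had 14, 31 and 40 counts with raffinose and 16, 8 and 7 without (1.42, SE 0.58), where raffinose replicate 1 fell among the untreated libraries. CD74, the invariant chain, had 6, 12 and 0 counts with raffinose and 19, 0 and 14 without, and its span overlaps that of the far more abundant TCOF1 on the other strand. HLA-DRA and HLA-DRB1 had no reads in any library, where 3 counts would be 0.0465 to 0.0507 CPM, or 0.186 to 0.203 CPM if 3 read pairs add 4 each. The class II transactivator CIITA was at 1.04 ± 0.794 and 1.85 ± 0.394 CPM. Among the DNA-binding RFX subunits for MHC promoters, RFX5 was at 74.5 ± 0.773 CPM with raffinose and 76.3 ± 1.71 without (-0.03, SE 0.05).

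All 5 transcriptional regulators of the set had small positive fold changes and overlapping groups, NLRC5 turning to -0.125 without raffinose replicate 2. STAT2, a signal carrier of type I interferon responses, was at 36.4, 30.4 and 41.4 CPM with raffinose and at 26.1, 26.4 and 33.3 CPM without. Untreated replicate 3 reached into the raffinose range (log2 fold change 0.34, SE 0.15, edgeR adjusted p = 0.397). IRF1, an activator of class I genes, had 15.7, 14.1 and 12.9 CPM with raffinose and 12.2, 13.3 and 14.3 CPM without (0.10, SE 0.11). IRF7, which amplifies interferon production, had a log2 fold change of 0.11 (SE 0.18), and IRF9, the DNA-binding partner of STAT2, one of 0.09 (SE 0.35). IRF9 overlaps AL136295 on the same strand, whose mean count of 966 exceeds the 200.3 of IRF9. NLRC5, the class I transactivator, had 12, 52 and 44 counts with raffinose and 26, 45 and 19 without (0.25, SE 0.60).

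Among the 21 members at 1 FPKM or more the largest differences were those of IFIT2 and ISG20, followed by PSMB10, HLA-B and IFIT1, whereas the log2 fold changes of the antiviral genes OAS3 and SAMHD1 were -0.10 and -0.03. IFIT1, IFIT2 and IFIT3 encode proteins that bind viral RNA and restrict its translation, and form a cluster on chromosome 10. IFIT2 (ENSG00000119922, 89283694 to 89309271, plus strand) was at 5.40, 3.93 and 5.19 CPM with raffinose and at 9.31, 8.44 and 8.92 CPM without. The groups lay well apart, the log2 fold change was -0.88 (SE 0.15), and the adjusted p was 0.123 by edgeR and 0.000162 by DESeq2. IFIT1 (ENSG00000185745, 89392546 to 89406487, plus strand) was at 9.71, 12.9 and 10.9 CPM with raffinose and 18.1, 13.6 and 15.2 CPM without. Its raffinose replicate 2 came close to untreated replicate 2, and the log2 fold change was -0.48 (SE 0.15), with an adjusted p of 0.278 by edgeR and 0.11 by DESeq2.

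IFIT3 had 2.42, 3.16 and 1.96 CPM with raffinose and 2.99, 3.35 and 3.41 CPM without, overlapping in 1 pair of libraries (-0.37, SE 0.21). All 3 IFIT genes overlap the span of the lysosomal lipase gene LIPA on the opposite strand, which had a mean count of 4418 and a log2 fold change of -0.07 (SE 0.05). Whether the counting used the strand is not given in the sources used here, and the part of LIPA in these values was not tested. A long non-coding RNA on the IFIT2 strand, AL353751, had a log2 fold change of -0.98 (SE 0.46).

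ISG20, an exonuclease that degrades single-stranded RNA, was at 11.5, 11.3 and 7.99 CPM with raffinose and at 15.3, 15.4 and 16.8 CPM without. Raffinose replicate 3 was lowest and no library overlapped. The log2 fold change was -0.62 (SE 0.16), with an adjusted p of 0.204 by edgeR and 0.0226 by DESeq2. ISG20 (ENSG00000172183) lies on chromosome 15 from 88636153 to 88656483, plus strand. ISG15, a ubiquitin-like modifier and the second most abundant member, was at 35.7, 37.8 and 34.3 CPM with raffinose and 49.4, 36.3 and 41.8 CPM without. Untreated replicate 1 was high and untreated replicate 2 lay within the raffinose range, and the log2 fold change was -0.24 (SE 0.12, edgeR adjusted p = 0.457).

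The classical induced effectors MX1, OAS1 and OAS2 were nearly silent, unlike ISG15, IFIT1 and IFIT2 above. The dynamin-like GTPase MX1 had 3, 12 and 4 counts with raffinose and 14, 11 and 11 without (log2 fold change -0.93, SE 0.70). The oligoadenylate synthetases, which activate RNase L, differed in level within their cluster on chromosome 12: OAS3 stood at 2.40 ± 0.183 FPKM in untreated cells, OAS1 at 0.0363 ± 0.00729 and OAS2 at 0.0220 ± 0.0194. OAS3 was at 21.6, 24.1 and 21.3 CPM with raffinose and 22.5, 25.3 and 23.8 CPM without (-0.10, SE 0.09), and OAS1 had 4 to 13 counts with raffinose and 12 to 19 without (-1.01, SE 0.63).

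The membrane tether BST2 had 30, 40 and 35 counts with raffinose and 30, 14 and 11 without, and its closest libraries of the groups, at 0.468 and 0.467 CPM, were apart by their scaling alone (0.91, SE 0.46, edgeR adjusted p = 0.459). The double-stranded RNA sensor IFIH1 was at 4.33 ± 0.955 and 3.90 ± 0.265 CPM. SAMHD1, a hydrolase of deoxynucleotides, varied most within groups, relative to its level, among members at 1 FPKM or more. It was at 40.0, 21.9 and 27.7 CPM with raffinose and 28.4, 41.2 and 21.9 CPM without (-0.03, SE 0.30). TRIM22, a ubiquitin ligase, had 4 to 18 counts with raffinose and 6 to 27 without.

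Among the other interferon-stimulated genes IFI35, whose product works with NMI, was at 7.35, 7.41 and 7.27 CPM with raffinose and 9.98, 8.95 and 7.70 CPM without. The raffinose libraries were almost equal and lay just under untreated replicate 3 (log2 fold change -0.27, SE 0.13, edgeR adjusted p = 0.421). IFI6, a mitochondrial and endoplasmic reticulum protein gene, was at 3.26 ± 0.281 and 2.72 ± 0.623 CPM (0.26, SE 0.20). The ADP-ribosyltransferase genes PARP9 and PARP14 and the ubiquitin ligase DTX3L, the partner of PARP9, are neighbours on chromosome 3. PARP14 was positive (0.21, SE 0.18), PARP9 and DTX3L were negative (-0.21, SE 0.15 and -0.07, SE 0.17), and all 3 overlapped between groups. IFI27 had 0, 18 and 36 counts with raffinose and 30, 22 and 22 without, and IFI44 had 3, 0 and 0 and 11, 0 and 6 and was not tested.

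**Figure D5:**
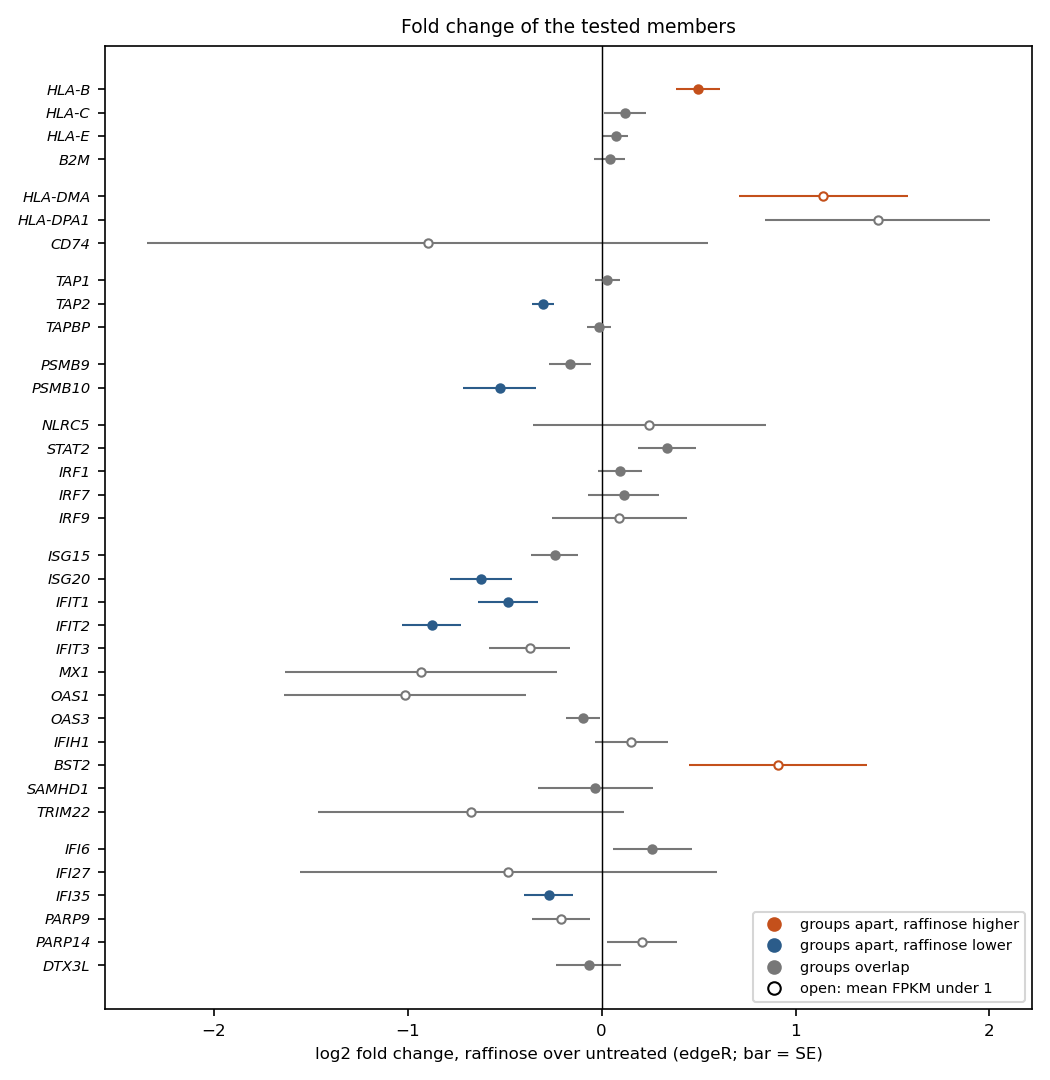
Log2 fold change of raffinose over untreated with its SE (edgeR, 3 libraries per group) for the 35 tested members by role. Orange and blue points have groups that do not overlap, open points have a mean under 1 FPKM, and IFIT1, IFIT2, ISG20, TAP2, PSMB10 and IFI35 lie left of 0 while HLA-B lies right of it.

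Upstream of the members, interferon genes themselves were almost silent. Of 9 listed ligand genes 5 had no reads in any library, IFNB1 and IFNG among them. IFNE, an epithelial type I interferon, had 15, 16 and 23 counts with raffinose and 0, 8 and 13 without. These groups did not overlap (edgeR log2 fold change 1.29, SE 1.02, adjusted p = 0.645). Untreated replicates 1 and 2 lay below the minimum of 0.158 CPM, so IFNE entered the test mainly through its higher group. Receptor and kinase genes were expressed except IFNLR1, the type III receptor chain, which had no reads. Of the 8 tested, 6 were positive, edgeR called 0 (2 at an unadjusted p under 0.05) and DESeq2 called the interferon-gamma receptor chain IFNGR1 higher, at 25.6 ± 0.781 CPM with raffinose and 20.1 ± 1.35 without (log2 fold change 0.35, SE 0.08, edgeR adjusted p = 0.191, DESeq2 adjusted p = 0.0259). Of all tested genes 51% were positive, 6.21% were higher at an unadjusted edgeR p under 0.05 and 1.34% were called higher by DESeq2. The type I receptor chain IFNAR1 was at 72.2 ± 0.541 and 56.7 ± 11.1 CPM (0.35, SE 0.14), and the kinase JAK1 at 262 ± 6.12 and 253 ± 13.2 CPM (0.05, SE 0.06).

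The remaining pathway lists gave no call by either tool, where DESeq2 called 1.34% of all tested genes higher and 2.05% lower. At an unadjusted edgeR p under 0.05, 6.21% of all tested genes were higher and 7.08% lower, and 51% had a positive log2 fold change. Of 14 further STAT, IRF and MHC transactivator genes 5 were positive and 9 negative, with 1 at an unadjusted edgeR p under 0.05. Of 10 negative regulators 6 were positive, 1 of them at an unadjusted edgeR p under 0.05, USP18, which removes ISG15 from proteins, at 2.66 ± 0.241 CPM with raffinose and 1.97 ± 0.106 without (edgeR adjusted p = 0.317). Of 11 tested nucleic acid sensing genes 7 were positive and 4 negative, with 2 lower at an unadjusted edgeR p under 0.05. The DNA sensor CGAS was at 24.2 ± 1.99 and 29.4 ± 1.96 CPM (-0.28, SE 0.10), and the helicase DDX41 at 100.0 ± 6.14 and 121 ± 11.3 CPM (-0.28, SE 0.09). Of 43 further interferon-stimulated genes 21 were positive and 22 negative, with a median of -0.06, and 5 higher and 2 lower at an unadjusted edgeR p under 0.05. Among them were TDRD7 (0.29, SE 0.10) and the ISG15-activating enzyme UBA7 (0.89, SE 0.31), and the 2 lower were APOL6 (-0.36, SE 0.13) and the tRNA synthetase gene WARS1 (-0.14, SE 0.06). Of the 6 tested class II pathway genes outside the set 3 were positive, and the smallest unadjusted p was that of the protease LGMN, at 77.3 ± 4.50 and 66.9 ± 4.36 CPM.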

How the data were processed

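Poly(A) RNA of 6 PANC-1 libraries was sequenced as strand-marked read pairs, per the labels' protocols. Tools listed in the submitters' processing notes, with no role stated, are edgeR, DESeq2, StringTie 1.3.4d, HISAT2 2.0.4 and cutadapt 1.9. Genome build, annotation and use of strand were not given in the sources used here. Estimated counts, already whole, and FPKM values per gene and library were deposited by the authors, per the file headers, with genes without reads listed at 0.0001 FPKM. Counts of 4 are far more frequent than neighbours (1382 genes against 456 at 3 and 286 at 5 in raffinose replicate 1), so counts overstate fragments, and intervals for zero cover counting error only.

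The test on the unchanged counts was that of edgeR 4.0.16 under R 4.3.3 (filterByExpr with a minimum count of 10, TMM, glmQLFit, glmQLFTest), adjusted over 18863 genes. The SE is the absolute log2 fold change over the root of the F statistic. CPM are after TMM scaling. Ratios of FPKM were compared by exact permutation. The fits were tested on simulated data. DESeq2 1.42.0, limma 3.58.1 on log2(FPKM + 1) and log2(FPKM + 0.1) for genes with a mean of 0.1 FPKM in a group, other filters, DESeq2 size factors, counts divided by 4, the replicate number as a block, and each library left out were alternatives. All 39 member IDs occur in GENCODE 29 (GRCh38), 31 sharing a start or end, of which only 10 share both. Named members were the 10 with the smallest edgeR p and HLA-B, HLA-C, B2M, TAP1, PSMB8, PSMB9, NLRC5, STAT2, IRF1, ISG15, IFIT1, MX1 and CD74; others are given more briefly. Other pathway genes were those called, otherwise from the 3 with the smallest p of a list, or fixed. Members and lists were chosen with earlier results of these data known. HLA-DRA, HLA-DRB1, RFX5, PSMB6, PSMB7, PDIA3, MICA, ERAP1, IFNLR1, IFNB1, IFNG, APOL6, WARS1, the marker genes and overlapping genes were named after their values were seen. Values of some listed genes are not reported here.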

Additional observations from a re-analysis of the deposited data

How the results depend on the processing

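With DESeq2 in place of edgeR, 1 member was called higher and 3 lower in place of 0 and 0. The other 13 alternatives, each library left out among them, called 0 members higher and 0 lower. These zeros show no stability where few genes of the whole table were called: 0 higher and 0 lower with the replicate block, 0 and 4 without untreated replicate 3, and 3 and 8 without raffinose replicate 2, against 7 and 16 by edgeR with all libraries. With the replicate number as a block (0 higher, 0 lower) the median log2 fold change of the members was -0.0215. Deviations from the group means correlated at -0.0089, -0.033 and 0.0063 between same-numbered libraries, and 0 of 6 libraries correlated best with its own number. The median of the members was -0.0319 by edgeR and 0.0422 and 0.0456 with limma on log2(FPKM + 1) and log2(FPKM + 0.1), where 28 members were tested and the median of all genes moved from 0.00587 to 0.0234 and 0.0391, and ran from -0.10 (without untreated replicate 1) to -0.0127 with libraries left out. Of 19 members followed, 16 kept their direction in every alternative that tested them. With libraries left out, the log2 fold change of B2M ranged from -0.0127 (without untreated replicate 2; -0.00989 without raffinose replicate 2) to 0.106, that of TAP1 from -0.0130 (without untreated replicate 3) to 0.0609 and that of NLRC5 from -0.125 (without raffinose replicate 2) to 0.662. The cause was not tested. The edgeR and limma adjusted p of IFIT2 lay between 0.0973 and 0.430 over the alternatives, and that of HLA-B reached 0.443. Members under 0.1 FPKM rest on a few read pairs.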
